A study of Mus musculus with 3 samples.

Results

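Ion channel genes form a list of 36 pore-forming and auxiliary subunits of hyperpolarization-activated, potassium, calcium and sodium channels, and they were found on the arrays by symbol. Of the 36 genes, 34 had a row with only their own symbol, out of 22180 genes with such a row. Where a gene had several rows, the row with the highest mean over the 3 arrays was used. Kcnk3 was found only on rows that also carry the symbol Gm9899 and is given apart, and Cacnb3 was not analysed here. The members were listed by name and not by their signals, but with earlier results of these data known.

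STHdh cells are immortalized striatal cells that carry a humanized Htt exon 1 with either 111 (STHdhQ111/Q111) or 7 (STHdhQ7/Q7) glutamine repeats on a C57BL6/J background. Q111-ASOs is STHdhQ111/Q111 treated with the morpholino antisense oligos I2E3 and E3I3, at 3 μM of each, which block the splice sites of exon 3 of Rest. Q111-Control is STHdhQ111/Q111 with a non-specific control oligo, and Q7-Control is STHdhQ7/Q7 with the same control oligo. All cells received the delivery reagent Endo-Porter at 6 μM and were harvested after 48 h, and 1 RNA sample per condition was profiled on 1 Affymetrix Mouse Gene 2.0 ST array. The values are log2 signals as the authors deposited them. Each genotype is 1 cell line, so an effect of the repeat length and any other difference between the lines cannot be told apart. Because each condition has 1 array, no test was possible, and genes past 2-fold in either direction were counted.

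Voltage-gated channels open with changes in membrane potential, and they shape the firing of neurons. Sodium channels carry the upstroke of the action potential, calcium channels couple depolarization to transmitter release and signalling, and potassium channels repolarize the cell. HCN channels open on hyperpolarization and carry a pacemaker current. The list also holds channels that are not gated by voltage in the strict sense: two-pore (Kcnk) leak channels, inward rectifiers (Kcnj) and the calcium-activated Kcnn2. Many neuronal channel genes are known targets of REST, a repressor that binds the RE1 element, and the sodium channel gene Scn2a is a classical example. Blocking Rest exon 3 is meant to keep REST out of the nucleus, so the comparisons ask how channel genes stood in the mutant line and with the ASOs.

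Among the members, the cell lines differed most in the inward rectifier gene Kcnj2 (16.6-fold higher in Q111-Control) and the sodium channel gene Scn3a (14.3-fold higher). Over 2-fold higher in Q111-Control than in Q7-Control were 5 of the 34 members (14.7%), against 2.03% of all genes. Over 2-fold lower were 2 of 34 (5.88%), against 2.53% of all genes, and 27 lay within 2-fold. At 1.5-fold the counts were 5 higher and 3 lower, against 3.88% and 5.2% of all genes. With ASOs, 1 of 34 members (2.94%) was over 2-fold higher than in Q111-Control, against 0.104% of all genes, and 0 were over 2-fold lower, against 0.0271%. At 1.5-fold, 2 members were higher and 0 lower with ASOs, against 0.455% and 0.153% of all genes. The median difference of the 34 members was 0.00 in both comparisons, as was that of all genes. Exactly equal deposited values set the members' medians. With ASOs 20 of the 34 differences were exactly 0, and between the lines 14 were, with 10 above and 10 below. Both comparisons use the Q111-Control array and share its error, so their values are given side by side and no relation between them was calculated. In such bulk RNA, fewer cells that express a gene and less RNA per cell cannot be told apart.

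**Figure D1:**
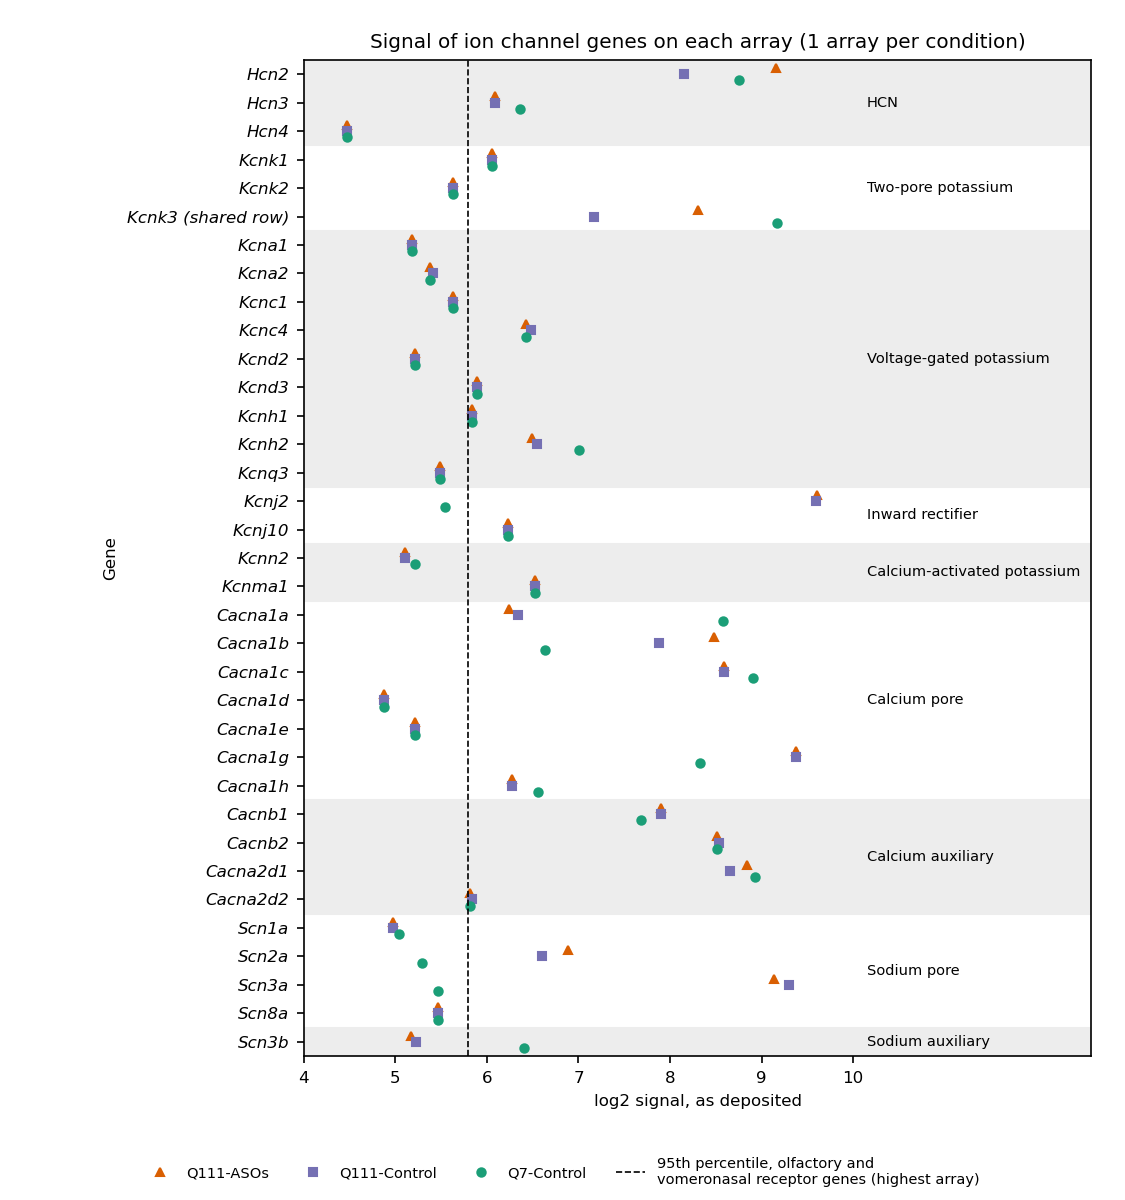
Log2 signal (x axis) of 35 channel genes (y axis, grouped by role) on the Q111-ASOs (triangles), Q111-Control (squares) and Q7-Control (circles) arrays, 1 array each, with the 95th percentile of olfactory and vomeronasal receptor genes as a dashed line. For 14 genes the 3 values are equal. Among the genes past 2-fold between the lines, the Q7-Control point lies to the left of both others for Kcnj2, Scn3a, Scn2a, Cacna1b and Cacna1g. It lies to the right for Cacna1a, Scn3b and the shared row of Kcnk3.

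The medians of the 3 arrays were close, at 6.00 to 6.03 in STHdhQ111/Q111 and 5.97 in STHdhQ7/Q7 over all 41345 rows. As a guide to low signal, 1394 olfactory and vomeronasal receptor genes were used, which are not expected in a striatal line. Their 95th percentile was 5.73 in Q111-ASOs, 5.80 in Q111-Control and 5.79 in Q7-Control, and is called the receptor level below. It is a description and not a detection limit, since probes of different genes bind with different strength. Of the 34 members, 21 lay above it in Q111-ASOs (61.8%), 21 in Q111-Control (61.8%) and 19 in Q7-Control (55.9%), close to the shares of all genes, 63.0%, 62.2% and 62.2%. Rest, the target of the ASOs, had a log2 signal of 9.33 in Q111-ASOs, 9.16 in Q111-Control and 9.16 in Q7-Control. The deposited values give 1 signal per transcript cluster and do not check the loss of 1 exon. Cell type markers were read on the same arrays. Of 8 neuronal markers, 4 were above the receptor level on each array (Tubb3, Rbfox3, Map2 and Syt1), while Snap25, Dcx, Nefl and Nefm were below it. Of 7 measured markers of striatal projection neurons, 3 were above it in Q111-ASOs, 2 in Q111-Control and 2 in Q7-Control. Penk and Gad1 were above it on all 3 arrays, and the dopamine receptor genes Drd1 and Drd2 were below it on all 3.

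By the count of genes past 2-fold, the neural progenitor list differed most between the lines, and the other lists held fewer such genes. Of 6 neural progenitor markers, 4 were over 2-fold lower in Q111-Control: Nes (-4.13), Sox2 (-4.37), Pax6 (-1.62) and Fabp7 (-1.58). Vim and Hes5 were equal on all 3 arrays. The summed linear signal was 14642 in Q111-ASOs, 14603.5 in Q111-Control and 18671 in Q7-Control. Vim, at a log2 signal of 13.78 on every array, makes up most of these sums, so they do not show the size of the 4 differences. The shares of all genes past 2-fold were 2.03% (higher) and 2.53% (lower). Of 8 fibroblast or mural markers, 2 were over 2-fold higher and 1 lower in Q111-Control, with sums of 15878, 14542 and 13588 in the same order of conditions. Of 5 muscle markers 1 was lower (Tnnt2), of 8 neuronal markers 1 was lower (Tubb3), and of 7 striatal projection neuron markers 1 was higher (Penk). Of 6 astrocyte markers 1 was higher (Slc1a3, 2.15). The astrocyte sums were 1699.7, 1811.6 and 625.9 in the same order, with Slc1a3 as the largest part of each. For the 5 oligodendrocyte, 7 microglia and 4 endothelial markers measured the count was 0 in both directions. No marker on any of these lists differed over 2-fold between Q111-ASOs and Q111-Control, where 0.104% of all genes were higher and 0.0271% lower. Tubb3, a neuronal tubulin gene, came close. Tubb3 had a log2 signal of 6.89 in Q111-ASOs, 5.95 in Q111-Control and 7.79 in Q7-Control, a difference of 0.94 with ASOs, near the 1.00 of Hcn2. The other neuronal markers did not share it: Nefm differed by 0.06 with ASOs, Map2 by -0.06 and Rbfox3 by -0.09. Snap25, Syt1, Nefl and Dcx had equal values in Q111-ASOs and Q111-Control. The part of these cell type differences in the channel values was not tested.

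Among the HCN genes, Hcn2 was the member over 2-fold higher with ASOs. Hcn2, which encodes a major HCN subunit of the brain, had a log2 signal of 9.16 in Q111-ASOs, 8.16 in Q111-Control and 8.76 in Q7-Control. The Q111-ASOs value was the highest of the 3 and the Q111-Control value the lowest. The difference was 1.00 on the log2 scale for Q111-ASOs minus Q111-Control, or 2.005-fold, which is just past the 2-fold criterion and holds rank 23 from the highest among all 22180 genes. For Q111-Control minus Q7-Control it was -0.60, or 1.52-fold lower in Q111-Control. Hcn3 had 6.08, 6.08 and 6.36 in Q111-ASOs, Q111-Control and Q7-Control, a difference between the lines of -0.28. Hcn4, the main HCN gene of the cardiac pacemaker, had 4.48 on all 3 arrays, below the receptor level. Hcn3 and Hcn4 had exactly the same values in Q111-ASOs and Q111-Control.

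The window from 250 bases before to 50 bases after the start of Hcn2 is shown because Hcn2 had the largest difference with ASOs among the 34 members with a row of their own (RefSeq, GRCm38.p6, chr10:79716384-79716683, plus strand). It holds 26 CpG dinucleotides and neither arm of the RE1 element as searched here. Capitals in this and the following sequences mark matches to an RE1 arm on either strand, either the left arm CAGCACC or the right arm GGACAG, and a sequence with no capitals holds none.
Hcn2: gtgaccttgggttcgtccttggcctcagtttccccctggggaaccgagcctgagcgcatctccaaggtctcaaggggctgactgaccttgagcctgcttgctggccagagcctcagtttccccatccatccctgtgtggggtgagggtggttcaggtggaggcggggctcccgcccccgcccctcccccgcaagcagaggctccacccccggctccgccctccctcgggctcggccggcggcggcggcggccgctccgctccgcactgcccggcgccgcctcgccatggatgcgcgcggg

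Among two-pore potassium channels, which set the resting potential as leak channels, Kcnk3 was lower in the mutant line and higher with ASOs on the row that it shares with Gm9899. That row had a log2 signal of 8.31 in Q111-ASOs, 7.17 in Q111-Control and 9.16 in Q7-Control. The Q111-Control value was the lowest, and the Q111-ASOs value lay between the other two. The differences were 1.14 for Q111-ASOs minus Q111-Control (2.20-fold) and -2.00 for Q111-Control minus Q7-Control (3.99-fold lower in Q111-Control). A second row with the same symbols had 6.45, 6.57 and 6.45 in the same order. It differed by only -0.12 and 0.12 in these comparisons, opposite in sign to the first row. Both are within 0.13, the SD of the differences with ASOs over all genes. The second row thus did not show the differences of the first. The annotation does not say which gene each row reads. The study had picked Kcnk3 from these same arrays, so its direction is not independent evidence. Kcnk1 had 6.06 and Kcnk2, a mechanosensitive leak channel, had 5.63 on each of the 3 arrays.

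The voltage-gated potassium channel genes had close values in the 3 conditions. All 9 members lay within 1.5-fold in both comparisons, as most of all genes did. Of all genes, 3.88% were past 1.5-fold higher and 5.2% lower between the lines, and 0.455% and 0.153% with ASOs. Exactly equal values on the 3 arrays were found for 6 of the 9, against 35.5% of all genes. Kcnh2, whose channel repolarizes the heart and is blocked by many drugs, had the largest difference of the group, with a log2 signal of 6.50 in Q111-ASOs, 6.54 in Q111-Control and 7.00 in Q7-Control. It was 1.38-fold lower in Q111-Control than in Q7-Control and differed by -0.05 with ASOs. Kcnc4, of the fast Kv3-type channels, had 6.43 in Q111-ASOs, 6.48 in Q111-Control and 6.43 in Q7-Control. Kcna2 had 5.38, 5.41 and 5.38 in the same order. The A-type channel genes Kcnd2 and Kcnd3 had 5.22 and 5.89 on every array, Kcna1 had 5.18, Kcnc1 had 5.63, Kcnh1 had 5.84 and the M-current gene Kcnq3 had 5.49. Of the 9 genes, 4 were above the receptor level on each of the arrays.

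Kcnj2 had the largest difference of all members. It encodes an inward rectifier that holds the resting potential of muscle and neurons near that of potassium. Its log2 signal was 9.61 in Q111-ASOs, 9.59 in Q111-Control and 5.54 in Q7-Control. Both STHdhQ111/Q111 arrays were high, and the Q7-Control signal was below the receptor level. The difference of 4.05 for Q111-Control minus Q7-Control, 16.6-fold, held rank 23 from the highest among all genes. With ASOs the difference was 0.01. The other inward rectifier, Kcnj10, known for potassium uptake by astrocytes, had 6.23 on all 3 arrays.

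The promoter of Kcnj2 is shown as that of the member with the largest difference between the lines (RefSeq, GRCm38.p6, chr11:111065914-111066213, plus strand). Its capitals are a left RE1 arm after the start, and it holds no right arm.
Kcnj2: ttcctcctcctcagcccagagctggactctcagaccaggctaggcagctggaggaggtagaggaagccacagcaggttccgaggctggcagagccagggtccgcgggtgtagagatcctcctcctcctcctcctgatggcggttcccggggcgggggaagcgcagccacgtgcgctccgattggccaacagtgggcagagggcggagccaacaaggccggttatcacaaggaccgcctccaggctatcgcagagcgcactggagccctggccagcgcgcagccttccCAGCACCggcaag

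Like most of all genes, the calcium-activated potassium channel genes did not differ over 1.5-fold. Kcnma1, which encodes the large-conductance BK channel, had 6.52 on all 3 arrays, and its second row had 4.67 on all 3. Kcnn2, a small-conductance channel gene, had 5.10 in Q111-ASOs, 5.10 in Q111-Control and 5.22 in Q7-Control, each below the receptor level.

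**Figure D2:**
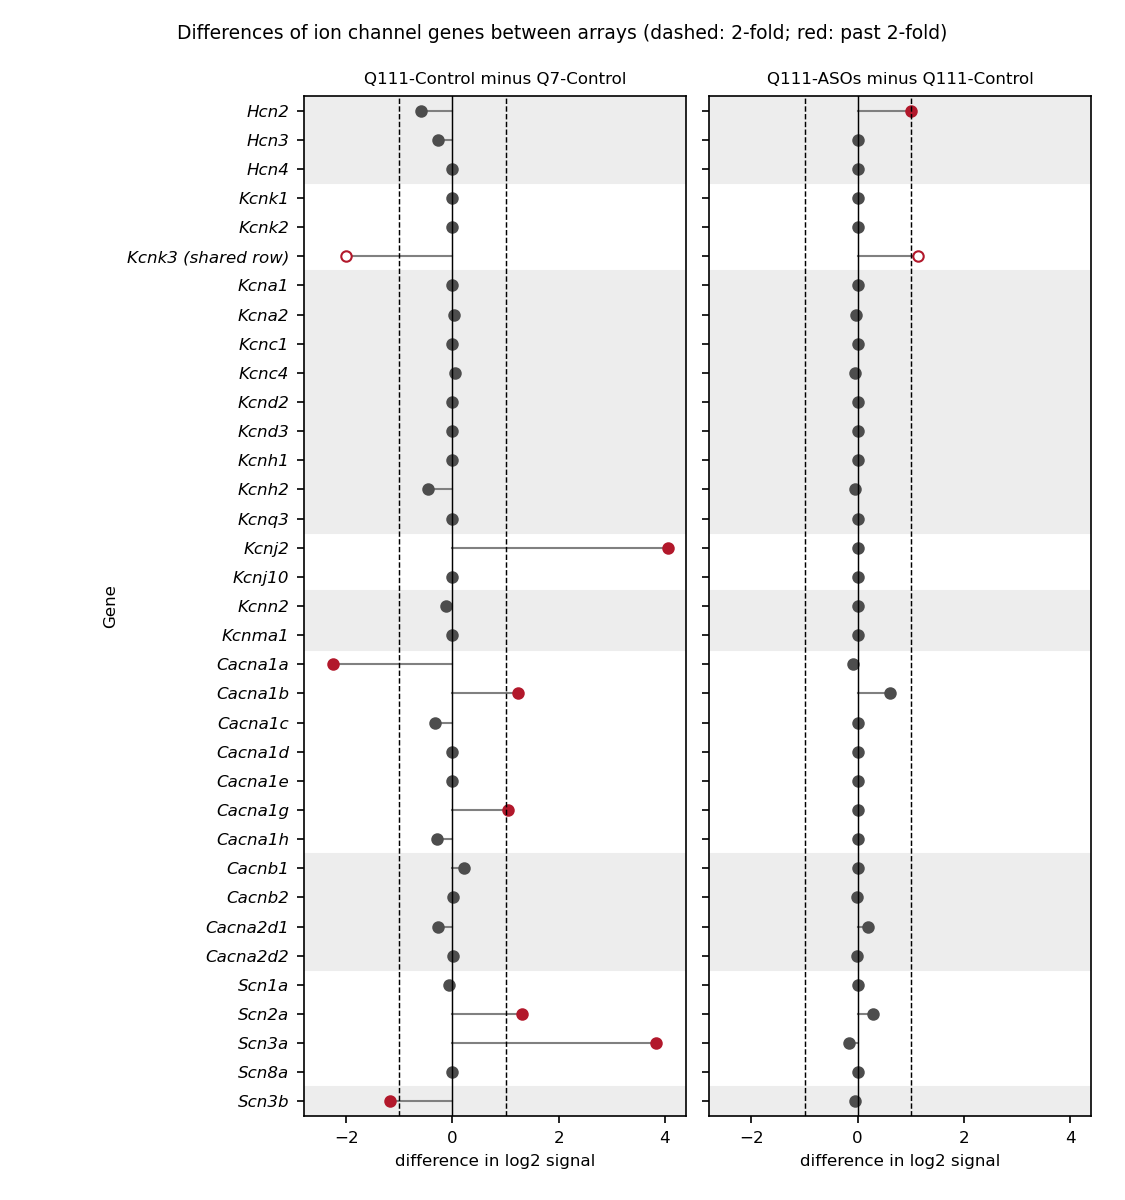
Difference in log2 signal (x axis) of each channel gene (y axis, grouped by role) for Q111-Control minus Q7-Control (left) and Q111-ASOs minus Q111-Control (right), with 2-fold as dashed lines, genes past it in red and the shared row of Kcnk3 as an open circle. Differences between the lines run from -2.24 (Cacna1a) to 4.05 (Kcnj2), and with ASOs Hcn2 at 1.00 and the shared row of Kcnk3 at 1.14 pass the line.

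Among calcium channel pore genes, the mutant line was low in 1 presynaptic type and high in another. Cacna1a, the P/Q-type pore that drives transmitter release at many central synapses, had a log2 signal of 6.24 in Q111-ASOs, 6.34 in Q111-Control and 8.58 in Q7-Control. Both STHdhQ111/Q111 arrays were low. It was 4.72-fold lower in Q111-Control than in Q7-Control, rank 114 from the lowest of all genes, and differed by -0.10 with ASOs. Cacna1b, the N-type pore, which also acts at synaptic terminals, had 8.48 in Q111-ASOs, 7.88 in Q111-Control and 6.63 in Q7-Control. The Q111-ASOs signal was the highest and the Q7-Control signal the lowest. Cacna1b was 2.37-fold higher in Q111-Control than in Q7-Control, rank 334 from the highest, and held rank 89 in the ASOs comparison, where Q111-ASOs was 1.52-fold higher. Cacna1g, a T-type pore that opens at low voltage, had 9.38 in both STHdhQ111/Q111 conditions and 8.33 in Q7-Control. It was 2.07-fold higher in Q111-Control, but when each array was centred on its median the difference of 1.05 became 0.99 and no longer passed 2-fold.

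The remaining calcium pore genes lay within 1.5-fold, as most of all genes did. The cardiac and neuronal L-type gene Cacna1c had a log2 signal of 8.59 in Q111-ASOs, 8.59 in Q111-Control and 8.91 in Q7-Control, a difference between the lines of -0.32. Cacna1h, another T-type gene, had 6.27, 6.27 and 6.56 in the same order. The L-type gene Cacna1d and the R-type gene Cacna1e had 4.88 and 5.22 on every array, below the receptor level.

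Auxiliary calcium channel subunits bring the pore to the membrane and tune its gating. Like most of all genes, the 4 measured lay within 1.5-fold in both comparisons, with differences from -0.27 to 0.22 between the lines. Cacna2d1, the α2δ subunit that binds gabapentin, had a log2 signal of 8.84 in Q111-ASOs, 8.65 in Q111-Control and 8.92 in Q7-Control. Its differences were 0.19 with ASOs and -0.27 between the lines. Cacnb1 had 7.90 in Q111-ASOs, 7.90 in Q111-Control and 7.68 in Q7-Control, and Cacna2d2 had 5.82, 5.83 and 5.82 in the same order. Cacnb2 had 8.52, 8.53 and 8.52 on its brighter row. On its dimmer row it had 4.46, 5.20 and 4.98, all below the receptor level, with a difference of -0.75 for Q111-ASOs minus Q111-Control. The 4 measured auxiliary genes were above the receptor level on all arrays when the brighter row was used.

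The promoter of Cacna1b is shown because this gene was past 2-fold between the lines and past 1.5-fold with ASOs (RefSeq, GRCm38.p6, chr2:24763103-24763402, minus strand). It holds 35 CpG dinucleotides and no RE1 arm.
Cacna1b: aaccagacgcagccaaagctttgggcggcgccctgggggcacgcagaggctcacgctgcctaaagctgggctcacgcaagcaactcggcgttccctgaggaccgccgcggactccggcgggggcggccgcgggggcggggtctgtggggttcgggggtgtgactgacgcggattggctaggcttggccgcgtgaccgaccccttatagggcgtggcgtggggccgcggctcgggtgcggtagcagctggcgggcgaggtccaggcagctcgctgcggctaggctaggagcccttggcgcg

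Sodium channel genes were split between the lines. Scn3a, a sodium channel pore gene of the developing brain, had a log2 signal of 9.13 in Q111-ASOs, 9.30 in Q111-Control and 5.46 in Q7-Control. The Q7-Control signal was below the receptor level and both others far above it. The difference for Q111-Control minus Q7-Control was 3.84, or 14.3-fold, rank 31 from the highest of all genes, and with ASOs it was -0.17. Scn2a, the pore gene known as a REST target, had 6.89 in Q111-ASOs, 6.60 in Q111-Control and 5.29 in Q7-Control. Between the lines it was 2.47-fold higher in Q111-Control, and Q111-ASOs was 1.22-fold above Q111-Control. Scn3b, which encodes an auxiliary β subunit, went the other way, with 5.17 in Q111-ASOs, 5.22 in Q111-Control and 6.40 in Q7-Control. It was 2.26-fold lower in Q111-Control, where its signal was below the receptor level, and differed by -0.05 with ASOs. Scn1a had 4.97 in Q111-ASOs, 4.97 in Q111-Control and 5.04 in Q7-Control, and Scn8a, a main sodium channel of mature axons, had 5.46 on all 3 arrays. For Kcnj2, Scn3a, Scn2a and Scn3b 1 side of the comparison was below the receptor level, so the sizes of their folds rest on a low signal. The signals of Cacna1a, Cacna1b and Cacna1g were above it on all 3 arrays. In both STHdhQ111/Q111 conditions, however, Cacna1a was below the median of all genes, 6.52 in Q111-ASOs and 6.51 in Q111-Control.

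Both annotated promoters of Scn2a are shown as those of the known REST target (RefSeq, GRCm38.p6, plus strand, chr2:65620519-65620818 and chr2:65668436-65668735). They hold 3 and 9 CpG dinucleotides and no RE1 arm in these windows. An element outside the windows, or with other letters in its arms, could not be found by this search.
Scn2a, upstream start: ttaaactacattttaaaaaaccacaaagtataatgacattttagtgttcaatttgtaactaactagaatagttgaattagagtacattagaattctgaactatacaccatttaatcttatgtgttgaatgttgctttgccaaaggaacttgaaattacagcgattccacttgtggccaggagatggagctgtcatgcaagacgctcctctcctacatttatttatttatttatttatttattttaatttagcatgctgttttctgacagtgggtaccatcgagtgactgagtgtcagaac
Scn2a, downstream start: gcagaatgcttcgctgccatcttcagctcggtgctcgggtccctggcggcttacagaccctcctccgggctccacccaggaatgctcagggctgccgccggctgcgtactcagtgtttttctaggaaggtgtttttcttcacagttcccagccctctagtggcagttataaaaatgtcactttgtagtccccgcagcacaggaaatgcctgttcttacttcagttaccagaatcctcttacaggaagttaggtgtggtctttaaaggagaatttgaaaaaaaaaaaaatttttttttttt

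In all, 37 promoter windows of 300 bases were matched by symbol for 26 of the 36 members. The other 10 had no matched window and were not searched. Among them are Cacna1a, Cacna1g, Scn3a and Scn3b, which were past 2-fold between the lines, and Kcnk3. The left arm was found in 2 of the 37 (5.41%), those of Kcnj2 and Kcnh2, against 7.14% of 32851 promoters of all genes. The right arm was found in 6 (16.2%), against 22.2%. Both arms in this order with 2 bases between them were found in 0 of the 37, against 0.0365% of all promoters. These matches describe the letters of these windows only. The members' promoters had a median of 25 CpG dinucleotides, against 9 for 102 promoters of other channel genes and 7 for all promoters. Their median G and C content was 66.7%, against 57.5% and 52.7%. The members did not share a composition, since they ranged from 3 to 63 CpG dinucleotides, and G and C content from 33.0% (Scn2a) to 87.3% (Cacna1d).

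The families of the members hold 95 other channel genes with a row of their own, and these were counted in the same way. Over 2-fold higher in Q111-Control than in Q7-Control was 1 of the 95 (1.05%) and over 2-fold lower were 4 (4.21%), where 2.03% and 2.53% of all genes were. With ASOs 0 were over 2-fold higher and 0 lower, against 0.104% and 0.0271% of all genes. The differences with ASOs ran from -0.48 to 0.52. Their median difference was 0.00 in both comparisons. Kcnip1, which encodes a calcium-binding auxiliary subunit of A-type channels, had a log2 signal of 4.99 in Q111-ASOs, 5.11 in Q111-Control and 9.26 in Q7-Control. Both STHdhQ111/Q111 signals were below the receptor level, so the measured ratio, 17.8-fold lower in Q111-Control, rests on a low signal and its size is not settled. Of the Kcnd genes, which encode pores of A-type channels, Kcnd2 (below the receptor level) and Kcnd3 were the same on all 3 arrays. Kcnd1 had 7.74 in Q111-ASOs, 7.44 in Q111-Control and 7.05 in Q7-Control, 1.31-fold higher in Q111-Control than in Q7-Control, and its Q111-ASOs signal was 1.23-fold above Q111-Control. Kcnq5, an M-current gene, had 6.41 in Q111-ASOs, 6.53 in Q111-Control and 9.03 in Q7-Control, 5.63-fold lower in Q111-Control, whereas its relative Kcnq3 was equal on all 3.

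Of the 11 other two-pore channel genes, 1 was over 2-fold lower and 1 over 2-fold higher in Q111-Control. Kcnk10, a mechanosensitive leak channel gene related to Kcnk2, had a log2 signal of 7.01 in Q111-ASOs, 6.49 in Q111-Control and 8.74 in Q7-Control. It was 4.76-fold lower in Q111-Control than in Q7-Control, and Q111-ASOs was 1.44-fold above Q111-Control. Kcnk5, an acid-sensitive leak channel gene, had 7.85 in Q111-ASOs, 7.34 in Q111-Control and 5.58 in Q7-Control. It was 3.37-fold higher in Q111-Control and 1.43-fold higher with ASOs. Its Q7-Control signal was below the receptor level, so the size of its fold between the lines rests on a low signal. The small-conductance calcium-activated channel gene Kcnn3 had 6.34 in Q111-ASOs, 6.69 in Q111-Control and 7.997 in Q7-Control, 2.47-fold lower in Q111-Control. None of the 14 other calcium channel genes, 12 other inward rectifier genes and 7 other sodium or leak channel genes with a row of their own differed over 2-fold in either comparison. Few of all genes did: 2.03% were higher and 2.53% lower between the lines, and 0.104% and 0.0271% with ASOs.

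**Figure D3:**
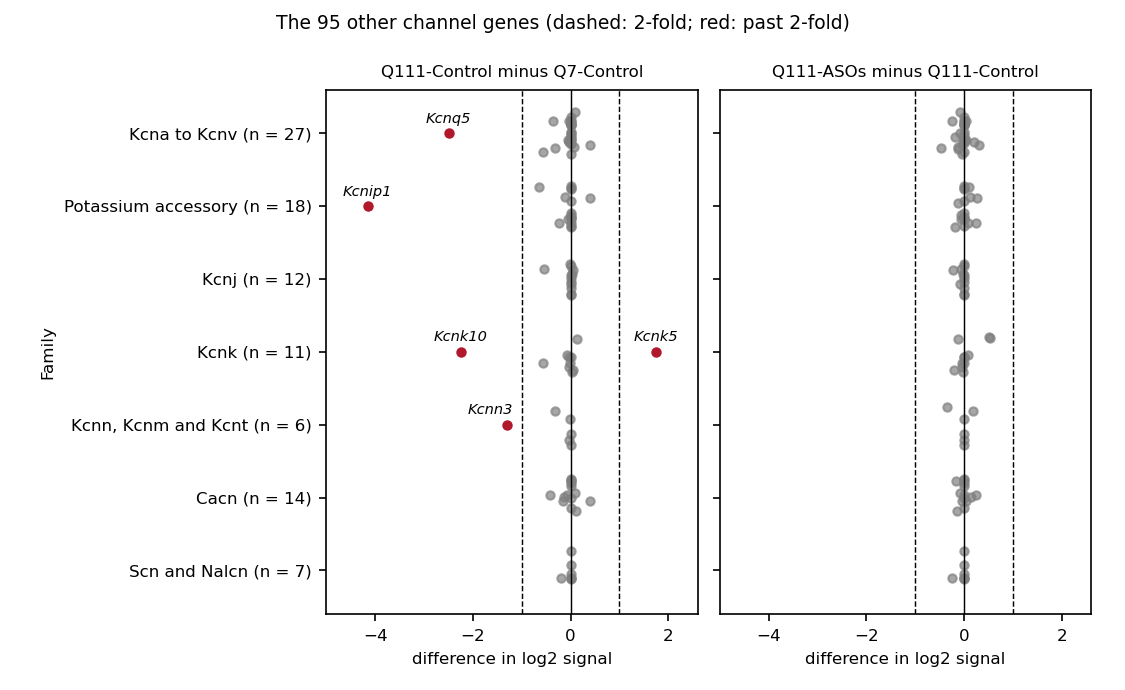
Difference in log2 signal (x axis) of the 95 other channel genes by family (y axis, with the number of genes, points spread vertically for legibility) for Q111-Control minus Q7-Control (left) and Q111-ASOs minus Q111-Control (right), with 2-fold as dashed lines. Kcnip1, Kcnq5, Kcnk10 and Kcnn3 lie below and Kcnk5 above the lines on the left, and no gene passes them on the right.

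Equal values were a feature of the deposited table that bears on the members. Of the 34 members, 14 had exactly the same value on all 3 arrays (41.2%), as did 42.1% of the 95 other channel genes and 35.5% of all genes. A further 6 were equal in Q111-ASOs and Q111-Control only (Hcn3, Kcnn2, Cacna1g, Cacna1h, Cacnb1 and Scn1a), and 4 in Q111-ASOs and Q7-Control only (Kcna2, Kcnc4, Cacnb2 and Cacna2d2). The remaining 10 had 3 different values. With ASOs, 20 of the 34 differences were therefore exactly 0, 6 were above and 8 below 0. An equal value does not show that a transcript was unchanged, since the sources used here do not say how the probes were summarized.

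**Figure D4:**
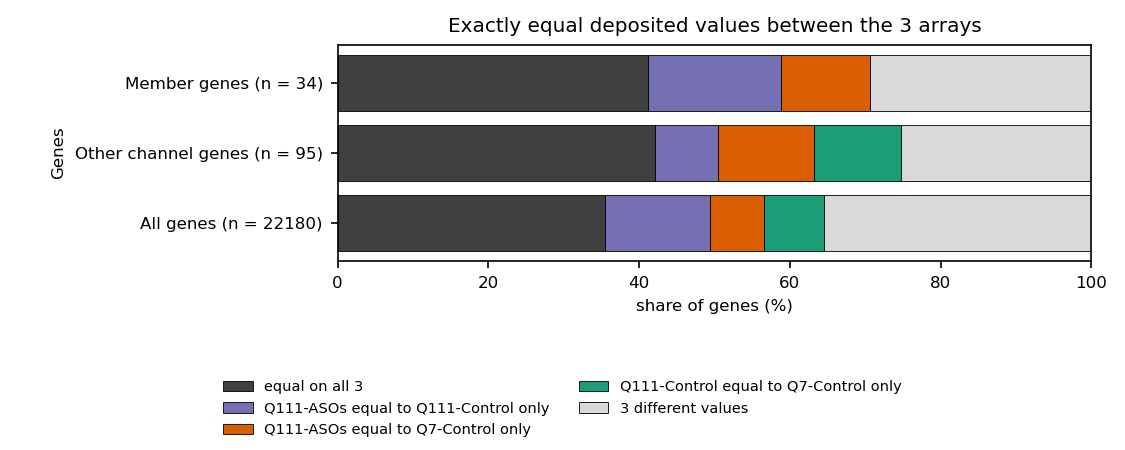
Share of genes (x axis, %) whose deposited values were exactly equal on all 3 arrays, on 1 pair only or on none, for the 34 members, the 95 other channel genes and all 22180 genes (y axis). Values equal on all 3 arrays made up 41.2%, 42.1% and 35.5%, and no member was equal in Q111-Control and Q7-Control only.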

How the data were processed

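Total RNA from 1 sample each of Q111-ASOs, Q111-Control and Q7-Control was hybridised to Affymetrix Mouse Gene 2.0 ST arrays. The authors deposited a log2 signal for each transcript cluster, made with Partek software. The sources used here give neither its version nor the background correction, normalization or summarization. The log2 scale was taken from the range of the values. Rows were named through the platform's probe annotation, with symbols updated by gene ID from RefSeq (GRCm38.p6) for 23328 of 23521 rows with 1 symbol. Another 1820 rows carried several symbols and 16004 none. The members and lists were chosen with earlier results of these data known. Values were used as deposited and subtracted between arrays. Members past 1.5-fold, or with the highest signal of their role, were to be named with their values, and other channel genes past 2-fold. Other genes of the same families were found by symbol, protein-coding genes only. The counting was tested on simulated data. With 1 array per condition, the number of arrays limits the precision. Alternatives were centring, quantile normalization, the mean of a gene's rows, filters on low signals, other fold criteria, rows with several symbols, values relative to Gapdh, and leaving out genes equal on all 3 arrays. Python 3.11.15, numpy 2.4.6, pandas 2.3.3 and matplotlib 3.10.9 were used.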

Additional observations from a re-analysis of the deposited data

How the results depend on the processing

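The limit for a moved difference was 0.13 on the log2 scale, the SD of the differences between Q111-ASOs and Q111-Control over all genes. For the 8 members past 1.5-fold, quantile normalization moved the differences by at most 0.07. The other alternatives do not test them: the mean of all rows could not move genes with 1 row, values relative to Gapdh could not move because Gapdh was equal on all 3 arrays, and centring adds 1 constant. Centring shifted all Q111-Control minus Q7-Control differences by -0.06 and left 4 members over 2-fold higher, without Cacna1g. Of all 22180 genes, 424 were then over 2-fold higher. Among the 11 members whose mean signal reached the median of all genes, 1 was over 2-fold lower in Q111-Control, since Scn3b did not reach it. Of the 11090 genes that reached this median, 441 were over 2-fold lower. A 3-fold criterion left 2 higher and 1 lower between the lines and 0 higher with ASOs. Of all 22180 genes, 233 were past it higher and 254 lower between the lines, and 10 higher with ASOs. With ASOs, 2 members were higher at 1.5-fold (Hcn2 and Cacna1b), and 2 at 2-fold when rows with several symbols were added (Hcn2 and Kcnk3). The same counts over all genes were 101 of 22180 and 24 of 22181. The other counts stayed within 1.5 times. The median difference of the members lay between -0.06 and 0.01 between the lines and between 0.00 and 0.02 with ASOs. The ends at -0.06 and 0.02 are the constants that centring adds. No paired analysis was possible because there is only 1 array per condition, and for the same reason no replicate could be left out.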

Other observations

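Members shared exact values with other genes as well as between arrays. Kcnk2 and Kcnc1 both had 5.63 on all 3 arrays, a value that 58 genes shared in Q111-Control, and Cacna1d had a value that 80 genes shared. In Q111-ASOs, Q111-Control and Q7-Control, 19, 20 and 17 of the 34 members had a value that at least 1 other gene also had. For all genes the shares were 44.1%, 44.4% and 41.2%. Members with large differences were among them: the Q111-Control value of Cacna1a was shared by 27 genes, that of Scn2a by 16, that of Scn3a by 5 and that of Cacna1g by 4, while those of Kcnj2, Hcn2 and Cacna1b were each found for 1 gene. Over all 41345 rows there were 24671 distinct values in Q111-ASOs, 24582 in Q111-Control and 25279 in Q7-Control. The cause was not tested.

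Htt, the gene whose repeat length differs between the lines, had a log2 signal of 8.97 in Q111-ASOs, 9.05 in Q111-Control and 9.85 in Q7-Control, a difference of -0.80 between the lines.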
